A study of Mus musculus with 148 samples.

Results

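Imprinted CpGs on chromosomes 2 and 6 were examined in DNA of mouse villi enterocytes, the absorptive cells that line the small intestine. The members were all cytosines in a CpG on either chromosome, each strand counted on its own, that had more than 30 reads in at least 50% of the samples. The rule kept 132 CpG cytosines on chromosome 2 and 97 on chromosome 6, of 1549 that met the same read minimum anywhere in the data and of 746 recorded at any depth on these chromosomes. Members less than 50 kb apart were joined into windows, which gave 6 windows named after the nearest imprinted gene: Mcts2, Nnat and Nespas-Gnas on chromosome 2, and Sgce-Peg10, Mest and Nap1l5 on chromosome 6.

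In genomic imprinting, a gene is expressed from only the copy inherited from the father or only the copy inherited from the mother. The choice is marked in the germ line by DNA methylation at a control region, and the mark is kept on that copy in the cells of the body. The control regions of the genes named here carry the mark on the maternal copy, so a mixture of both copies is expected to lie near the midpoint between unmodified and fully modified. Bisulfite reads do not tell methylation from hydroxymethylation, so the measurement is called DNA modification, and it averages the maternal and paternal copies.

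The 148 samples came from C57BL/6 mice, whose substrain is spelled C57BL/6MCrl in the strain label and C57BL/6NCrl in the growth protocol. There were 71 samples from adults at postnatal day 60 (P60), with 8 in each of the 9 segments of the small intestine from proximal to distal except segment 6, which had 7. Infants at postnatal day 6 (P6) gave 10 samples, with 3 in segment 1, 3 in segment 3 and 4 in segment 7. Adults at postnatal day 90 (P90) gave 67 samples of segments 1, 3, 4, 7 and 8 after drinking milk in place of water, 35 with lactose-containing milk (LAC+) and 32 with lactose-free milk (lac-). Both milk groups also had free access to food, and the LAC+ milk had sucrose added as well. The dissection labels place segments 1 to 3 in the duodenum and 4 to 6 in the jejunum, whereas the study's text starts the jejunum at segment 3, so segments are given here by number. The cells were taken off the villi with a chelating method, and DNA modification data hold no expression markers with which the enterocyte label could be checked. The labels do not say which samples came from the same mouse, and the study's methods give fewer mice per segment for its comparison with mRNA than there are P60 samples per segment. Samples were treated as independent, so p-values measure the spread between samples and take no account of mice that may have given several of them.

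Reads over the members summed to between 312056 and 2405304 per sample, with a median of 451950 among P60 samples, 769658 among P6, 999867 among LAC+ and 911274 among lac-. The median number of reads per sample and CpG was 5921.5 in the Nnat window, 4077.5 in Sgce-Peg10, 2774.5 in Nap1l5, 2382 in Mcts2, 2340.5 in Mest and 329.5 in Nespas-Gnas. Cytosines outside CpGs in the same windows read as modified in 0.302% to 0.815% of reads as group means, a reading that includes incomplete conversion. All P6 samples were sequenced in lane 8, P60 samples in lanes 4 to 7, and no P6 sample shared a lane with a P60 sample, so age and lane cannot be told apart. Of the P90 files, 29 of 35 LAC+ but 12 of 32 lac- were marked as merged, while all P6 and P60 files were unmerged. LAC+ segment 3 replicate 7 was the only sample of lane 2 and stood apart in several windows. Replicate 1 of the P60 segments had the highest mean of its segment at Sgce-Peg10 in 6 of 9 segments. Values without these samples stand beside the Sgce-Peg10, Nnat and Mcts2 results.

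DNA was captured with padlock probes, strands whose arms anneal to both ends of a target and which close into a circle once the stretch between the arms has been copied. All but 18 of the members lay in such a captured stretch, while 11 lay under a probe arm and 7, all in Mest, lay outside the probes that the study lists. A CpG under an arm is read from the synthetic probe and not from the mouse, and those 11 had P60 means between 0.949% and 3.90%. They are set apart below wherever CpGs are described one by one. The following stretches carry CpGs named in the results. They are the low Mcts2 window, the high Nnat window, the Nap1l5 probe with the most modified CpG of its window, and some of the probes whose CpGs differed along the intestine or between ages. The stretch labelled Nap1l5 end probe is the middle of the 3 Nap1l5 probes with members, and the last Nap1l5 probe is not printed. No CpG of the printed Nap1l5 stretch passed over the P60 segments or between ages, and position 58907794 passed over the P90 segments only. All stretches are reference sequence of GRCm38, plus strand, 5′ to 3′, with the member CpGs in capitals.

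Mcts2 probe, chr2:152687279-152687428: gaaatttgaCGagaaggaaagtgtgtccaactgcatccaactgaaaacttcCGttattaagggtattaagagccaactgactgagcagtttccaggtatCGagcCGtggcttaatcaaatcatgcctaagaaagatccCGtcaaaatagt

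Nnat far probe, chr2:157559430-157559518: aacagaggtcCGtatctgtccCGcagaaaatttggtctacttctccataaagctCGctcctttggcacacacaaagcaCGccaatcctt

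Nnat near probe, chr2:157559673-157559804: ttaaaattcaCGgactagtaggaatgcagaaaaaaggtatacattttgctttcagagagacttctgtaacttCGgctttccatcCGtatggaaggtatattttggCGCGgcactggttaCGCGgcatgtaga

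Nespas probe, chr2:174294251-174294375: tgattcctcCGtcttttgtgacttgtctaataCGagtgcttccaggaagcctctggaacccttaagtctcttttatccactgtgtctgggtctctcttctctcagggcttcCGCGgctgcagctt

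Sgce probe, chr6:4745983-4746043: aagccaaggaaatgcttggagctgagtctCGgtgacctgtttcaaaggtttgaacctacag

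Mest low probe, chr6:30739509-30739562: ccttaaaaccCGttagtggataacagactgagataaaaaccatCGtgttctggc

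Mest end probe, chr6:30739819-30739975: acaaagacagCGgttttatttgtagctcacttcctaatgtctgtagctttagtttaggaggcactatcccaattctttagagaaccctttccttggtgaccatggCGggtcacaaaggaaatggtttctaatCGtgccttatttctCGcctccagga

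Nap1l5 end probe, chr6:58907688-58907804: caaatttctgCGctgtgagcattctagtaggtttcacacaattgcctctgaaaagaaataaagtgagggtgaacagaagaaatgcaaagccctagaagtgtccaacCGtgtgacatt

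The methylated hexamer TGCCGC is the motif bound by ZFP57, a zinc finger protein that keeps imprints through early development. The hexamer was searched on both strands of each run of members, extended by 10 bp on either side. It occurred 2 times in the Nnat run of 375 bp, both in the near probe above, where it reads GCGGCA on the strand shown and ends each of the CGCG pairs. The Mest run of 4563 bp held 12, the proximal Nespas-Gnas run of 5872 bp held 7, the Sgce-Peg10 run of 3002 bp held 3 and the Nap1l5 run of 895 bp held 2. None was found in the Mcts2 run of 150 bp or in the distal Nespas-Gnas run of 512 bp. For scale, 11.6% of 32851 RefSeq mouse promoters of 300 bp held the hexamer at least once. A match describes the letters only.

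In P60 enterocytes most probes of Nespas-Gnas and Mest read near the midpoint, and most probes of the other windows did not. Averaged over the CpGs of a probe that were not under its arm, 27 of the 45 probes with members had a P60 mean between 40% and 60%. By window these were 16 of 21 in Nespas-Gnas, 9 of 14 in Mest, 1 of 4 in Sgce-Peg10 and 1 of 3 in Nap1l5. They were 0 of 1 in Mcts2 and 0 of 2 in Nnat. The probe means ran from 9.20% to 94.3% with a median of 49.6%. The CpGs of one probe were read together and are not independent.

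The Mcts2 window (chr2:152687289-152687418) held 5 CpGs of the minus strand in the coding exon of Mcts2, a translation factor gene that arose by retrotransposition inside an intron of H13. Its 4 captured CpGs had P60 means between 33.8% and 38.7%, below the midpoint. The least modified was position 152687289 with 33.8% ± 4.03 (SD, n = 71), and the most modified was position 152687379 with 38.7% ± 4.68.

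The Nnat window (chr2:157559440-157559794) held 11 CpGs of the plus strand, 284 bp from the start of Nnat, which encodes the membrane protein neuronatin and sits inside an intron of Blcap. Of these, 5 fell in a Blcap intron and 6 in an exon of a noncoding Blcap transcript. Their P60 means ran from 80.4% ± 3.40 (SD, n = 71) at position 157559451 to 96.2% ± 1.42 at position 157559508, and all 11 lay far above the midpoint. The midpoint level by which imprinted control regions are recognised was not seen at these CpGs in P60.

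The Nespas-Gnas window (chr2:174292521-174327122) held 2 runs of CpGs. Gnas encodes the stimulatory G protein alpha subunit, and Nespas is a noncoding RNA transcribed antisense to it from the paternal copy. The proximal run (chr2:174292521-174298372, 105 CpGs) covers Nespas introns and exons, Gnas introns and untranslated parts of Gnas transcripts, and had a mean of 51.2% over its CpGs in P60. The distal run (chr2:174326631-174327122, 11 CpGs) had a mean of 41.7%. Both means include CpGs under a probe arm. Over captured CpGs alone, the probes of the distal run had P60 means of 48.9% ± 9.82 and 43.4% ± 4.61. Of the 21 probes of the window, 16 had P60 means between 40% and 60%. The highest captured CpG was position 174296312 with 80.5% ± 6.99 (SD, n = 71), in a probe of 11 CpGs whose mean was 78.9% ± 6.83. The lowest was position 174292521 with 18.6% ± 10.2 in the 54 P60 samples that passed the read minimum, at a median depth of 59 reads.

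The Sgce-Peg10 window (chr6:4745858-4748839) held 12 CpGs, 2 in an intron of Sgce, which encodes epsilon-sarcoglycan, and 10 in an intron of Peg10, a gene derived from a retrotransposon. The genes are transcribed away from each other from a shared control region. The probe at Peg10 read on the plus strand had a P60 mean of 47.8% ± 2.39 (SD, n = 71), whereas the Peg10 probe read on the minus strand had 21.3% ± 4.62. The most modified CpG was position 4746013 in the Sgce intron with 69.7% ± 4.56, and the least modified captured CpG was position 4748717 with 12.3% ± 4.70.

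The Mest window (chr6:30735423-30739965) held 67 CpGs, nearly all in introns of Mest, which encodes an enzyme of the alpha/beta hydrolase family. Of its 14 probes, 9 had P60 means between 40% and 60%. The low probe, printed above, had 9.20% ± 2.93 (SD, n = 71), with 7.52% ± 2.86 at position 30739519. The end probe had 77.2% ± 3.51, with 88.8% ± 3.21 at position 30739924. The probes lie close together, and their P60 samples ran from 5.68% to 20.7% at position 30739552 of the low probe and from 80.6% to 94.6% at position 30739924 of the end probe.

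The Nap1l5 window (chr6:58907068-58907942) held 18 CpGs at the start of Nap1l5, a nucleosome assembly protein gene that sits in an intron of Herc3. Its first probe, with 14 captured CpGs of the minus strand, had a P60 mean of 43.8% ± 2.34 (SD, n = 71). The next probe, printed above as the Nap1l5 end probe, had 94.3% ± 0.514. The last probe, which is not printed, had 89.3% ± 1.72 at its 1 CpG. The most modified CpG of the window was position 58907698 with 95.6% ± 0.576 and the least modified captured one was position 58907103 with 42.2% ± 2.34.

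**Figure D1:**
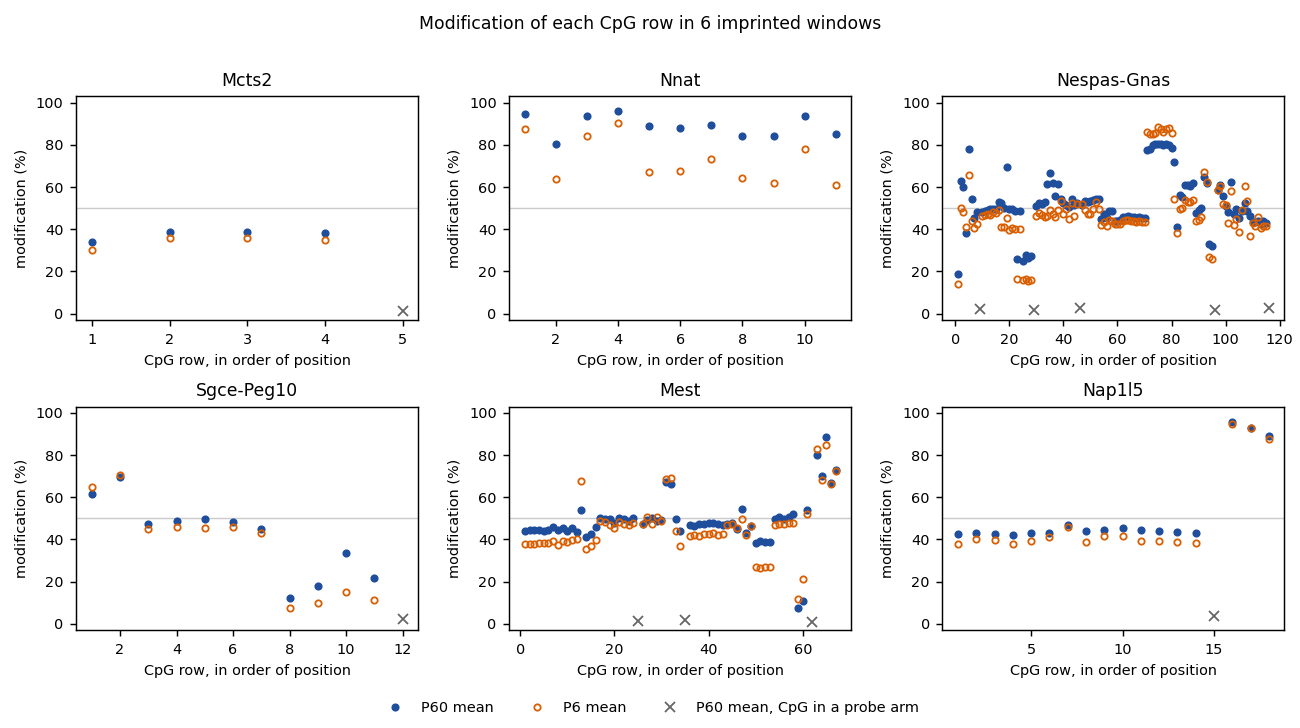
Percent DNA modification (vertical axis) of each CpG cytosine in order of its position (horizontal axis) in the 6 windows, as the mean of 71 P60 samples (filled) and of 10 P6 samples (open). The grey line marks 50%, and crosses mark CpGs under a probe arm, which were read from the probe. Most captured CpGs sit near the line, all 11 of Nnat lie above it, and the end of Mest and of Nap1l5 rise to 88.8% and 95.6%.

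Both strands of 15 CpGs were among the members, and 13 of these had neither strand under an arm. The strands of a CpG are as a rule modified alike in body cells. In 8 of the 13 the P60 means of the strands were within 5 percentage points. The largest gap was at positions 4748716 and 4748717 of Peg10, where the plus strand had 44.9% and the minus strand 12.3%, with the plus strand higher in 71 of 71 P60 samples. Within Nespas, the plus strand had 48.5% and the minus strand 26.1% at positions 174295131 and 174295132, and 48.6% and 25.1% at positions 174295140 and 174295141, again in 71 of 71 samples. The strands were captured by different probes, and the part of probe capture in these gaps was not tested. The level of a single probe is therefore given below as the reading of that probe.

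The first comparison asked whether these CpGs differ along the adult intestine, where the study looked for a proximal to distal gradient. They rarely did. Over the 9 segments, a quasi-binomial F test on the read counts with Bonferroni correction at 0.01 over all CpG cytosines of the data called 8 of 220 members, or 3.64%. The background was 17.6% of all 1515 CpG cytosines tested, 21.1% of those of the Lct-Mcm6 locus and 18.7% of those of imprinted targets on other chromosomes. The difference of segment 9 from segment 3 had a median of -0.19 percentage points over the members and ran from -11.5 to 10.4. The 8 CpGs lay in 6 probes, of which 2 were in Sgce, 2 at the end of Mest, 1 in Nespas and 1 was the last probe of Nap1l5. That Nap1l5 probe is not among the stretches printed above.

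At the Mest end probe 3 of 4 CpGs rose from proximal to distal. Position 30739965 had P60 segment means of 67.2%, 67.5%, 68.4%, 71.5%, 74.8%, 74.7%, 76.5%, 78.5% and 78.8% from segment 1 to segment 9. In segment 3 its samples lay between 66.8% and 72.1% with a median of 67.5%, and in segment 9 between 76.8% and 82.5% with a median of 78.3%. The segments did not overlap, and the difference of 10.4 percentage points was larger than the SD within either, 2.00 and 1.97. The adjusted p over the segments was 1.15e-16.

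Position 30739924 of the same probe rose from 83.6% ± 1.75 in segment 1 to 91.8% ± 1.13 in segment 9 (adjusted p = 1.01e-17), and position 30739951 from 60.7% ± 2.65 to 69.6% ± 2.56 (adjusted p = 1.03e-07). These 3 CpGs share a probe and its reads. In the Mest low probe, position 30739552 had 8.86% ± 2.28 in segment 3 and 15.7% ± 2.66 in segment 9 (adjusted p = 0.00444).

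The Sgce intron CpGs went the other way. Position 4746013 of the Sgce-Peg10 window had a P60 mean of 72.9% in segment 1, and its means of segments 3, 5, 7 and 9 were 74.8%, 68.2%, 66.8% and 63.2%. In segment 3 the lowest, median and highest samples were 71.7%, 75.1% and 78.4%, and in segment 9 they were 59.3%, 62.8% and 71.2%. The groups did not overlap, although 1 segment 9 sample, replicate 1, lay close to segment 3. The adjusted p over the segments was 1.77e-12. The other Sgce CpG on the same strand, position 4745858, had 65.9% ± 2.66 in segment 3 and 57.7% ± 4.72 in segment 9 (adjusted p = 0.000197), and the samples of these segments overlapped.

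The remaining CpGs that passed, in Nap1l5 and Nespas-Gnas, differed little. Position 58907942 in the last Nap1l5 probe had 88.7% ± 0.871 in segment 3 and 90.1% ± 1.56 in segment 9 (adjusted p = 0.00505), and position 174294261 in the Nespas probe had 55.6% ± 0.822 and 54.5% ± 0.862 (adjusted p = 0.00927). None of the 5 Mcts2 and none of the 11 Nnat CpGs passed.

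Segment 9 against segment 3 alone called 3 members, or 1.31% of those tested, against 6.71% of all 1551 CpG cytosines. They were position 4746013 in Sgce (-11.5 percentage points, adjusted p = 0.00209), position 30739924 (5.40, adjusted p = 5.75e-05) and position 30739965 (10.4, adjusted p = 0.000272) in Mest. Without replicate 1 of every segment, 7 of the 8 CpGs passed over the 9 segments, and position 58907942 of Nap1l5 did not (adjusted p = 0.0101). The difference of segment 9 from segment 3 was then -12.1 percentage points at position 4746013 (adjusted p = 9.20e-16) and -9.06 at position 4745858 (adjusted p = 4.43e-06).

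Averaged over its CpGs, no window passed over the 9 segments. The range of the segment means was 0.79 percentage points in Nespas-Gnas, 1.76 in Mest, 1.78 in Nap1l5, 2.06 in Nnat, 2.27 in Sgce-Peg10 and 2.85 in Mcts2. Permutation tests of the 71 samples gave adjusted p between 0.132, in Mest, and 0.923, in Nespas-Gnas, with Benjamini-Hochberg correction over the 22 windows of the series, of which 36.4% passed at 0.05. A p that misses the threshold does not show that the segments were alike. At Sgce-Peg10 the range was 4.79 with pooled reads (adjusted permutation p = 0.00445), 3.35 over CpGs with more than 100 reads (adjusted permutation p = 0.0482) and 2.31 without replicate 1 (adjusted permutation p = 0.267). On the plus strand alone Mest passed with a range of 2.14 (adjusted permutation p = 0.0309) and Nap1l5, with 2 CpGs, with 0.92 (adjusted permutation p = 0.00417).

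**Figure D2:**
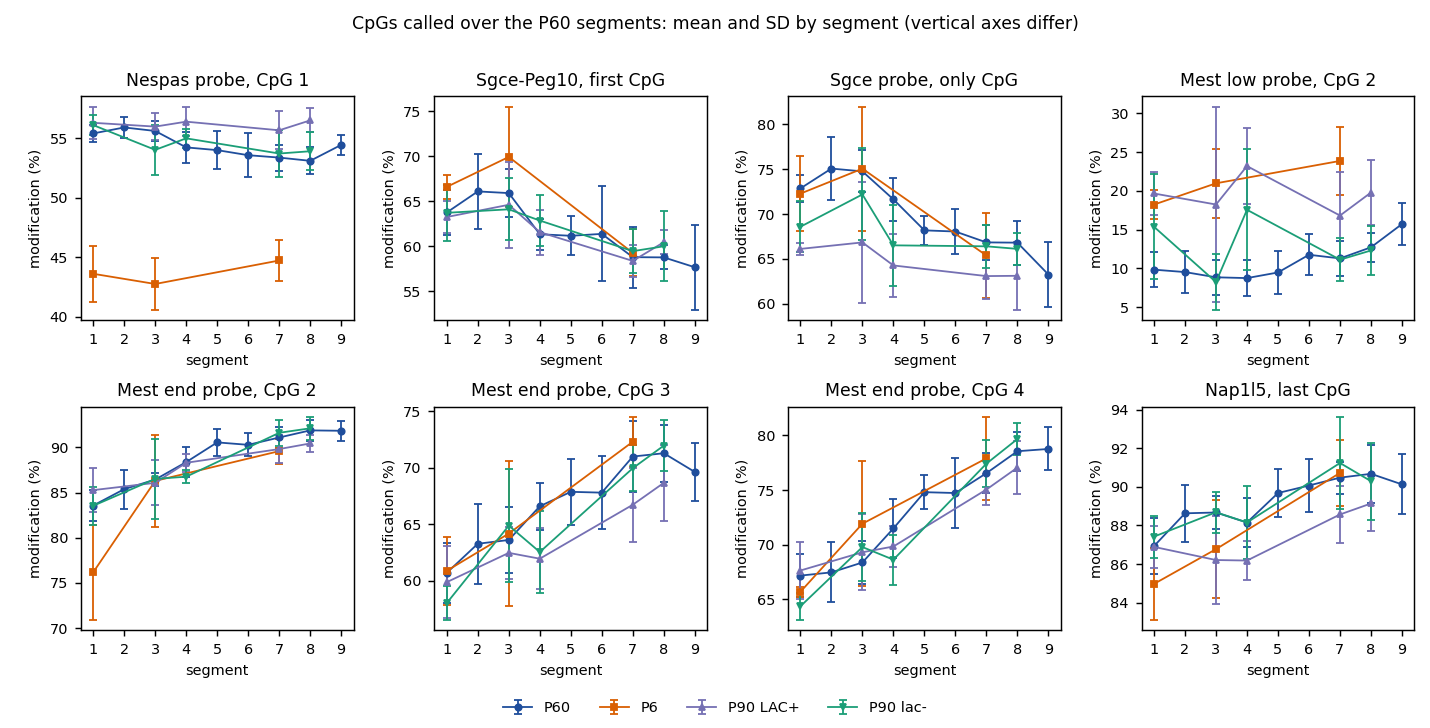
Percent DNA modification (vertical axes, which differ between panels) by intestinal segment (horizontal axis) of the 8 CpGs called over the P60 segments, with points for the mean and bars for the SD of P60, P6, P90 LAC+ and P90 lac- samples. The CpGs of the Mest end probe rise towards the distal segments in each group, and the Sgce probe falls from 74.8% in P60 segment 3 to 63.2% in segment 9.

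The P90 samples were used to see whether the same CpGs varied along the intestine in other mice, with diet and file kind as terms, a comparison added after the P60 calls were seen. Over segments 1, 3, 4, 7 and 8 it called 10 of 220 members, against 19% of all 1489 CpG cytosines. File kind was uneven over these segments. All 7 LAC+ files were merged in segment 1 and in segment 4, but only 1 lac- file in each of segments 3, 7 and 8. Segment and file kind thus overlapped in part. Of the 8 CpGs called in P60, 4 were called again, which is 50% of the P60 calls and 40% of the P90 calls. These were the 3 CpGs of the Mest end probe and position 4745858 in Sgce. At position 30739965 the lac- samples went from 64.4% ± 1.25 in segment 1 to 79.7% ± 1.51 in segment 8, and the LAC+ samples from 67.6% ± 2.62 to 77.1% ± 2.44. The difference of the segment 8 from the segment 3 mean, averaged over the diets, was 8.81 percentage points (adjusted p of the fit = 3.97e-17). The P90 differences given here are of this kind and are not adjusted for file kind.

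Position 4745858 had 64.1% ± 3.45 in lac- segment 3 and 60.0% ± 3.86 in segment 8. Its difference averaged over the diets was -4.13 percentage points (adjusted p of the fit = 0.000318). Position 4746013, the Sgce CpG with the larger P60 fall, differed by -4.90 percentage points in P90 and did not pass (adjusted p = 0.138). Nor did position 58907942 (2.27, adjusted p = 0.0230), position 30739552 (2.81, adjusted p = 1) or position 174294261 (0.20, adjusted p = 1), the last with the opposite sign from P60. The other P90 calls were 3 Nnat CpGs (positions 157559440, 157559484 and 157559508) and 1 each in Nespas-Gnas (174292521), Mest (30737639) and Nap1l5 (58907794). Their differences of segment 8 from segment 3, averaged over the diets and not adjusted for file kind, ran from -0.65 to 3.82 percentage points.

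P6 samples, with 3 or 4 per segment, were not tested along the intestine. At position 30739965 of Mest the P6 samples of segment 1 had 65.2%, 65.8% and 66.1%, and those of segment 3 had 65.8%, 72.8% and 77.1%. The 4 samples of segment 7 lay between 73.7% and 82.9%, all above segment 1. At position 30739924 the P6 means were 76.2% in segment 1, 86.3% in segment 3 and 89.6% in segment 7.

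The second comparison was between infant and adult enterocytes in matched segments, 1, 3 and 7. Modification was higher in P60 than in P6 at 35 of the 36 members that passed, among them all 11 CpGs of Nnat. The 36 were 16.6% of the members tested, against 17.7% of all 1482 CpG cytosines, of which 15% were higher and 2.70% lower in P60. The share of members called was thus near the background. Differences come from the 3 matched segments, whereas the P60 mean and SD given for a single CpG are over all 71 samples. The median difference over the members was 3.93 percentage points, and 37 of the 45 probes had a higher mean in P60. These values carry the lane difference between P6 and P60 samples, which cannot be told apart from age.

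At Nnat the difference was large in each matched segment. The mean of the near probe, the 7 CpGs read in all samples, lay between 62.2% and 73.0% with a median of 68.1% in the 10 P6 samples and between 80.3% and 92.1% with a median of 88.4% in the 71 P60 samples, so the ages did not overlap. Over the 11 CpGs of the window, the P60 and P6 means were 89.3% ± 2.07 and 75.5% ± 1.99 in segment 1, 89.7% ± 1.63 and 71.8% ± 5.05 in segment 3, and 89.0% ± 0.894 and 71.2% ± 2.18 in segment 7. Exact permutation tests gave two-sided p = 0.00606 in segments 1 and 3 (8 against 3 samples) and 0.00202 in segment 7 (8 against 4), the smallest these numbers allow. Over the 3 segments the difference was 16.5 percentage points with an adjusted permutation p of 3.14e-05.

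The single Nnat CpGs differed by 5.61 to 24.9 percentage points. The largest difference was at position 157559794, the CpG nearest the Nnat start, where the lowest, median and highest samples were 56.08%, 62.11% and 65.98% in P6 and 76.03%, 85.45% and 91.11% in P60 (24.9 percentage points, adjusted p = 1.67e-18). P6 samples lay entirely below P60 samples of the matched segments at 9 of the 11 CpGs, where 3.37% of all CpG cytosines did so. The smallest differences were 6.18 and 5.61 percentage points at positions 157559440 and 157559508 of the far probe, which were at 94.5% and 96.2% in P60, and position 157559451 of the same probe differed by 16.4.

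In Nespas-Gnas 18 of the 107 CpGs tested, or 16.8%, passed as higher in P60 and none passed as lower. The share was near the 15% of all 1482 CpG cytosines that passed as higher. The CpG differences ran from -8.35 to 24.9 percentage points, and the probe of 11 CpGs with the highest level of the window had 83.7% ± 8.80 in P6 and 78.9% ± 6.83 in P60. The largest difference was at position 174295033 in a Nespas intron, where P6 samples had 32.3%, 45.7% and 54.8% and P60 samples 64.7%, 69.4% and 73.9% as lowest, median and highest (24.9 percentage points, adjusted p = 2.14e-13). The ages did not overlap there. It was the highest of 7 CpGs of 1 probe, of which the lowest had a P60 mean of 48.5%, and the probe mean was 52.7% ± 1.55 in P60 and 41.2% ± 6.67 in P6. Position 174293141 had 77.99% ± 1.66 in P60 and 65.8% ± 4.23 in P6 (adjusted p = 1.79e-10).

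In the Nespas probe printed above, position 174294261 had 54.4% ± 1.48 in P60 and 43.8% ± 2.00 in P6 (adjusted p = 9.99e-15), and positions 174294284 and 174294363 differed by 4.62 and 5.70 percentage points. The P6 samples lay entirely below the P60 samples at 6 CpGs, or 5.17% of this window, against 3.37% of all CpG cytosines. Its mean was 3.97 percentage points higher in P60 (adjusted permutation p = 0.00203). By segment, P60 and P6 were 50.7% ± 2.19 and 43.8% ± 2.17 in segment 3 without overlap, and 49.7% ± 1.26 and 49.6% ± 6.23 in segment 7.

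In Mest 5 CpGs were higher and 1 was lower in P60. These 6 calls were 9.4% of the 64 CpGs tested in this window, against 17.7% of all CpG cytosines. Of the higher, 4 formed the probe at positions 30738601, 30738660, 30738683 and 30738726, whose mean was 38.9% ± 2.87 in P60 and 26.7% ± 4.91 in P6, with adjusted p between 1.34e-07 and 2.31e-07. The fifth was position 30737639, with 54.3% ± 1.85 and 49.7% ± 2.23. The only member that was called lower in P60 was position 30739552 in the low probe, where P6 samples had 16.8%, 19.9% and 29.1% and P60 samples 5.68%, 10.4% and 20.7% as lowest, median and highest (-11.0 percentage points, adjusted p = 5.16e-09). Within segments 1, 3 and 7 its ages did not overlap, and 0.583% of all CpG cytosines had every P6 sample above every P60 sample. The window mean was 3.54 percentage points higher in P60 (adjusted permutation p = 8.80e-05), and in segment 1 it was 45.7% ± 1.46 in P60 and 38.9% ± 1.71 in P6 without overlap.

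Sgce-Peg10 had 1 call among 12 CpGs, or 8.33%, against 17.7% of all CpG cytosines. The call was position 4748811 in the Peg10 intron, with 33.7% ± 6.11 in P60 and 14.9% ± 4.90 in P6 (19.1 percentage points, adjusted p = 6.03e-07) at a median depth of 142 reads. Its samples ran from 19.1% to 48.3% in P60 and from 7.78% to 23.1% in P6. Mcts2 and Nap1l5 had no call among 5 and 18 CpGs, and their CpGs differed by medians of 3.17 and 4.47 percentage points.

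All 6 window means were higher in P60, by 2.75 percentage points in Mcts2, 3.54 in Mest, 3.87 in Nap1l5, 3.97 in Nespas-Gnas, 4.65 in Sgce-Peg10 and 16.5 in Nnat. All passed (adjusted permutation p between 3.14e-05 and 0.0200), as did 81.8% of the 22 windows of the series, 77.3% with P60 higher. The Mcts2 call was lost without P6 segment 1 replicate 1 (1.95, adjusted permutation p = 0.0842) and without P6 segment 3 replicate 1 (2.38, adjusted permutation p = 0.0523). Sgce-Peg10 and Nap1l5 lost their calls with pooled reads (1.93 and -0.38 percentage points), where deep CpGs weigh most. Only 2 of the 4 Sgce-Peg10 probes had a higher mean in P60 over all samples of both ages. The Sgce probes differed by -3.01 and -0.61 percentage points and the plus-strand Peg10 probe by 2.78. The minus-strand Peg10 probe, at a median of 142 reads, differed by 10.3. Over the CpGs read in all samples, the Sgce-Peg10 window had 52.9% ± 2.40 in P60 and 51.4% ± 4.85 in P6.

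In Nap1l5 the difference was 8.52 percentage points in segment 1, where P60 had 50.7% ± 1.60 and P6 42.2% ± 2.32 without overlap (exact permutation p = 0.00606), 2.56 in segment 3 and 0.517 in segment 7. In Mest it was 6.87, 2.20 and 1.55 percentage points in the same order. A permutation test of whether the age difference varied between segments gave adjusted p = 0.170 for both windows. A version chosen after seeing the data, in which the common difference was removed before permuting, gave adjusted permutation p = 0.0221 for Nap1l5 and 0.0106 for Mest.

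**Figure D3:**
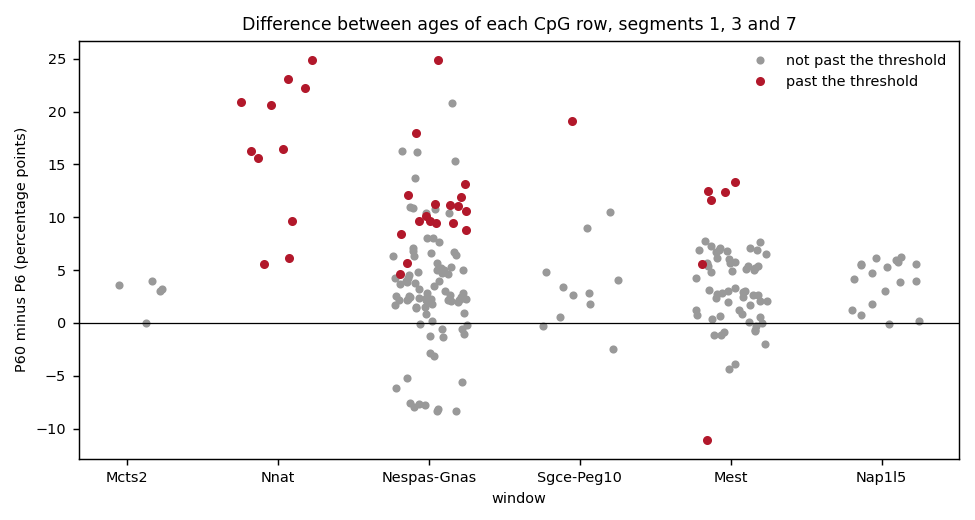
Difference in DNA modification between P60 and P6 samples of segments 1, 3 and 7 (vertical axis, percentage points) for each CpG cytosine of the 6 windows (horizontal axis). Red points passed Bonferroni correction at 0.01: all 11 in Nnat, 18 in Nespas-Gnas, 1 in Sgce-Peg10 and 6 in Mest, of which 1 lies below 0. Together they are 16.6% of the members tested, against 17.7% of all CpG cytosines.

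The third comparison was between P90 mice given lactose-containing or lactose-free milk. Here Nnat was lower and Mcts2 higher in LAC+ samples, but neither window passed when diets were permuted within segment and file kind. At Nnat the level ran with the kind of file, and at Mcts2 the means of the file kinds also differed. Across segments, 4 of 220 members were called, against 0.873% of all 1489 CpG cytosines, of which 0.604% were lower and 0.269% higher in LAC+. The 3 lower ones were the Nnat positions 157559683 (-7.70 percentage points, adjusted p = 0.00467), 157559757 (-8.05, adjusted p = 0.00967) and 157559794 (-8.81, adjusted p = 0.00985). The higher one was the Mcts2 position 152687289 (4.87, adjusted p = 0.00682). With file kind as a term, a fit added after seeing the data, 0 of 220 members and 0 of 1489 CpG cytosines passed. In that fit 52 of the 220 members had an unadjusted p under 0.05, a count that was not made over all CpG cytosines. Without that term limma called 8 members and 46 of 1489 CpG cytosines. Without LAC+ segment 3 replicate 7, 2 members and 11 of 1489 CpG cytosines passed.

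The Nnat near probe had 86.2% ± 6.06 (SD, n = 32) in lac- and 78.1% ± 7.23 (SD, n = 35) in LAC+ samples. The lowest, median and highest samples were 74.6%, 89.2% and 92.6% in lac- and 62.7%, 77.1% and 93.3% in LAC+, so the diets overlapped. Over the 5 segments the difference was -8.18 percentage points (adjusted permutation p = 0.000110 over 22 windows, of which 27.3% passed, 18.2% with LAC+ lower and 9.09% with LAC+ higher). By file kind, merged lac- files had 79.2% ± 3.72 (n = 12) and merged LAC+ files 76.3% ± 4.34 (n = 29). Unmerged lac- files had 90.4% ± 1.48 (n = 20) and unmerged LAC+ files 86.8% ± 11.9 (n = 6). Lane 3 held 10 lac- samples with a mean of 79.2% and 14 LAC+ samples with 76.5%, and lane 1 held 3 lac- samples with 83.5% and 20 LAC+ samples with 80.1%.

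Within a file kind the diets were thus closer than the file kinds within a diet. Permuting the diets within segment and file kind gave -3.38 percentage points (adjusted permutation p = 0.115), and the lanes that carried both diets gave -1.84 (adjusted permutation p = 0.512). Over all files without the 1 sample of lane 2, at 62.7%, the difference was -7.64 (adjusted permutation p = 0.000110). Among unmerged files alone it was -3.53, and 0.96 without that sample (adjusted permutation p = 0.794). Merged against unmerged files of both diets differed by -10.5 percentage points in the Nnat mean (adjusted permutation p = 0.000220) and passed at 8 of 11 Nnat CpGs, 10 of 220 members in all, against 7.59% of all CpG cytosines. How the merged files were made is not given in the sources used here, and its part in the diet difference was not tested beyond these values.

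The Mcts2 mean, with the CpG under the arm included, had 25.4% ± 3.44 in lac- and 29.7% ± 4.86 in LAC+ samples. The lowest, median and highest samples were 16.6%, 25.5% and 32.7% in lac- and 18.1%, 30.7% and 41.7% in LAC+. The difference was 4.26 percentage points (adjusted permutation p = 0.000587), and the diets overlapped. Merged files had 25.7% ± 2.88 (n = 12) in lac- and 30.2% ± 3.67 (n = 29) in LAC+, and unmerged files had 25.2% ± 3.80 (n = 20) and 26.9% ± 8.61 (n = 6). Over both diets, merged files had 28.9% ± 4.02 (n = 41) and unmerged files 25.6% ± 5.13 (n = 26). The part of file kind in the Mcts2 difference was not tested beyond the values given here. The difference between diets was 4.42 in the lanes that carried both (adjusted permutation p = 0.0420), 3.86 without LAC+ segment 3 replicate 7, the highest sample (adjusted permutation p = 0.00147), and 3.43 with file kind in the strata (adjusted permutation p = 0.0843). Among unmerged files it was 1.83 (adjusted permutation p = 0.888), and -1.03 without that sample (adjusted permutation p = 0.794). Within single segments, exact permutation tests gave p = 0.00291 in segment 8 (31.9% ± 3.45 in LAC+ and 26.4% ± 1.15 in lac-) and p between 0.0198 and 0.604 in the others.

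The other windows did not pass between diets. Their differences were 0.33 percentage points in Nespas-Gnas, -0.98 in Sgce-Peg10, 0.64 in Mest and 0.47 in Nap1l5, with adjusted permutation p between 0.147 and 0.562. In the Mest low probe position 30739552 had 19.5% ± 6.86 in LAC+ and 13.1% ± 5.95 in lac- samples without a call, and merged files were higher than unmerged ones by 10.1 percentage points (adjusted p = 0.00143). That CpG was at 41.2% in LAC+ segment 3 replicate 7.

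**Figure D4:**
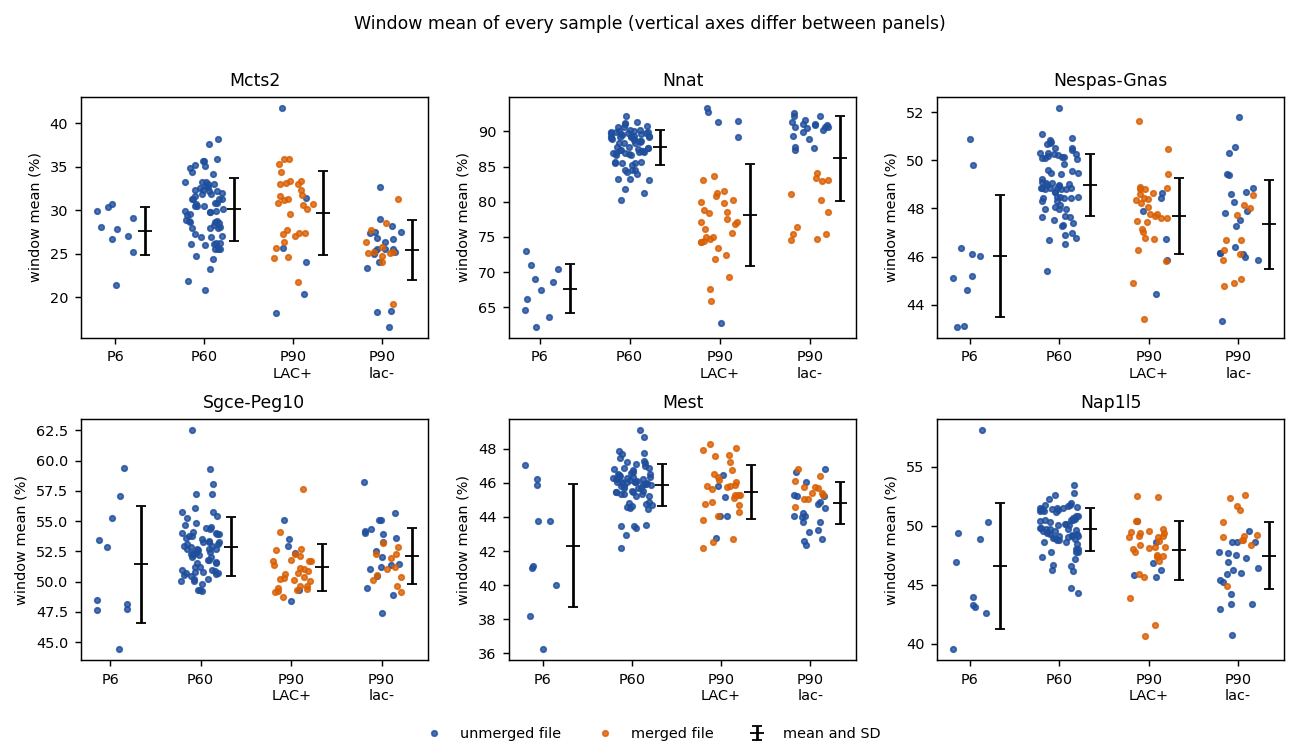
Mean DNA modification of each window (vertical axes, which differ between panels) in every sample, by group (horizontal axis) and kind of file (colour), with the mean and SD beside each group. P6 and P60 do not overlap at Nnat, and merged P90 files at Nnat lie between 65.8% and 84.1% while most unmerged ones lie above.

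P90 lac- samples were lower than P60 samples of the same segments at Mcts2 (-4.41 percentage points, adjusted permutation p = 3.67e-05), Nap1l5 (-2.38, 0.000189), Nespas-Gnas (-1.76, 3.67e-05) and Mest (-1.21, 0.000192). Milk and age differ together between these groups and cannot be told apart. Lane and file kind differed in part. Of the 32 lac- files 20 were unmerged, as were all P60 files, and lanes 5, 6 and 7 held samples of both groups. The part of lane in these differences was not tested. Nnat (-1.94, adjusted permutation p = 0.0616) and Sgce-Peg10 (-0.91, 0.0680) did not pass. Of the 22 windows of the series 68.2% passed, 59.1% with lac- lower. With pooled reads the sign turned at Nap1l5 (0.21, adjusted permutation p = 0.637) and Nespas-Gnas (0.28, adjusted permutation p = 0.134). On the plus strand it turned at Nespas-Gnas (0.23, adjusted permutation p = 0.514), and Mest did not pass (-0.50, adjusted permutation p = 0.170). At Nnat unmerged lac- files alone lay 2.29 percentage points above P60 (adjusted permutation p = 0.000269), the opposite sign from all lac- files. Merged lac- files were 4 of 6 in segment 1 and 5 of 7 in segment 4, but 1 each in segments 3, 7 and 8. The part of file kind in the Nnat difference was not tested.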

How the data were processed

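DNA of villi enterocytes was bisulfite-converted, captured with padlock probes and sequenced by the authors, and per the labels the reads were trimmed with Trimmomatic 0.32 and mapped to GRCm38 (mm10) with Bismark. The deposited files list every cytosine of a sample by strand with its counts of modified and of unmodified reads, not normalized. Percent modification was computed as the modified reads divided by all reads at cytosines with more than 30 reads. Whether reads were collapsed by the degenerate bases of the probes is not given in the sources used here. All 148 samples were used, and the lane fit left out lane 4, which held 1 sample.

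Single CpGs were tested with a quasi-binomial F test (1 dispersion per CpG) with Bonferroni correction at 0.01 over all CpG cytosines of all chromosomes that exceeded 30 reads in 3 or more samples per group. Segment was a term for age and diet. Window means were compared by permuting groups within segments (100000 resamples, seed 1, two-sided, smallest p 1e-05) with Benjamini-Hochberg correction at 0.05 over the 22 windows of the series. A window mean used CpGs with more than 30 reads in all samples compared. Exact permutation tests were run within segments. The interaction test permuted groups within segments. The tests were checked on simulated data. Alternatives were read minimums of 10 and 100, pooled reads, single strands, runs more than 5 kb apart, lane or file kind as a term, limma (log2 odds, pseudocount 0.5), the replicate number as a block, and samples left out. Those added after seeing the data were CpGs under probe arms left out, unmerged files only, file kind in the diet fit, P60 replicate 1 or LAC+ segment 3 replicate 7 left out, the P90 segments, and the interaction with the common difference removed.

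In each window the text names the most and least modified CpG by P60 mean, the CpG with the lowest p over P60 segments, and every CpG called where 5 or fewer were, otherwise the 5 with the lowest p. The members, the gene list and the tests were chosen with earlier results of these data known. Lanes and merged files were read from file names. P60 segment 1 replicates 1 and 4 had the closest counts of 245 replicate pairs (chi-square per CpG 3.08, median of the others 6.15), differed by more than sampling noise and were kept apart. Of 56 probes placed on the reference, 45 held members. Sequence and promoters came from RefSeq GRCm38.p6, and gene annotation came from GENCODE. Python 3.11.15, NumPy 2.4.6, pandas 2.3.3, SciPy 1.17.1, matplotlib 3.10.9, R 4.3.3 and limma 3.58.1 were used.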

Additional observations from a re-analysis of the deposited data

Results flagged for a closer look

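Within groups of 4 to 10 samples, the highest or lowest sample of 22 of 192 groups stood apart from the others by Dixon's criterion, where chance flags about 1 in 20, or 9.6 of 192. At Sgce-Peg10, replicate 1 had the highest window mean and stood apart in P60 segments 2 (62.5%), 4 (57.3%), 7 (55.8%) and 9 (59.3%), and so did P6 segment 7 replicate 4 (57.1%), lac- segment 1 replicate 4 (58.2%) and LAC+ segment 4 replicate 5 (57.7%). At position 4746013 of the same window replicate 1 of segment 9 was also the highest (71.2%), and at position 4745858 it was replicate 4 of segment 8 (61.7%).

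At Nnat all samples that stood apart were low, with 83.2% in P60 segment 4 replicate 1, 81.8% in P60 segment 5 replicate 7, 84.1% in lac- segment 3 replicate 5 and 83.3% in lac- segment 7 replicate 5. These lac- samples were the only merged files of their groups. At Mcts2 the low samples were P60 segment 5 replicate 5 (20.8%) and LAC+ segment 1 replicate 7 (24.5%).

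At Mest, P60 segment 7 replicate 7 was high (48.7%) and lac- segment 4 replicate 4 low (42.3%). Among the CpGs of the Mest end probe, P60 segment 8 replicate 4 was high at position 30739924 (94.6%), segment 9 replicate 8 high at position 30739951 (75.1%) and segment 8 replicate 1 low at position 30739965 (74.5%). At Nap1l5, P60 segment 5 replicate 3 was low (44.7%) and LAC+ segment 1 replicate 4 high (52.4%). The cause of these values was not tested.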

How the results depend on the processing

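Across the alternatives to the window means, 20 values lost the call, 11 gained one and 16 turned the sign, 6 of these with a lost and 2 with a gained call. All others kept both. Over the P60 segments, calls were gained at Sgce-Peg10 with more than 100 reads (range 3.35 percentage points) and pooled reads (4.79), and on the plus strand at Mest (2.14) and Nap1l5 (0.92). Between ages, Mcts2 lost its call with the replicate block (2.62, adjusted p = 0.0553), Nespas-Gnas in its distal run (1.32), Sgce-Peg10 with more than 100 reads (1.93) and pooled reads (1.93), and Nap1l5 on the plus strand (0.32) and with pooled reads (-0.38). Leaving out 1 P6 sample at a time gave 1.95 to 3.25 at Mcts2, 3.13 to 3.91 at Mest, 3.03 to 4.76 at Nap1l5, 3.01 to 4.66 at Nespas-Gnas, 15.6 to 17.2 at Nnat and 4.17 to 5.35 at Sgce-Peg10, and 32 to 44 called CpGs.

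Between diets, file kind in the strata gave 3.43 at Mcts2, -3.38 at Nnat and -0.25 at Nap1l5, and lanes with both diets -1.84 at Nnat and -1.23 at Nap1l5. Unmerged files gave 1.83 at Mcts2, -3.53 at Nnat and -0.88 at Nespas-Gnas, and without LAC+ segment 3 replicate 7 they gave -1.03, 0.96 and -1.34, and 0.60 at Sgce-Peg10. The plus strand gave -0.38 at both Nespas-Gnas and Nap1l5, the minus strand 1.24 at Mest, more than 10 reads -1.996 and pooled reads -1.49 at Sgce-Peg10. For lac- against P60, Nnat passed with more than 10 reads (-1.99) and with the replicate block (-2.28) and turned in unmerged files (2.29). Nespas-Gnas turned with pooled reads (0.28) and on the plus strand (0.23) and lost its call in the distal run (-2.12), Sgce-Peg10 turned with more than 10 reads (1.15) and in unmerged files (0.23), Mest lost its call on the plus strand (-0.50), and Nap1l5 turned with pooled reads (0.21). Removing the common difference gave age interactions that passed at Mest (range of segment differences 5.33) and Nap1l5 (8.00). The cause of these changes was not tested.

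Called CpGs numbered 17 over P60 segments, 12 for segment 9 against 3, 123 for age and 37 for diet with Benjamini-Hochberg correction at 0.05, and 5 over P60 segments when cytosines outside CpGs joined the Bonferroni correction. Diet calls among the members were 2 with more than 10 reads, 2 without LAC+ segment 3 replicate 7, 0 with file kind as a term and 8 with limma. Over all CpG cytosines they were 11, 11, 0 and 46 in the same order. Same-numbered P60 samples had a median correlation of deviations of 0.071 and 126 of 280 pairs over 0.1, against a median of -0.0176 for other pairs. Their correlations ran from -0.663 to 0.761, and replicate 1 was highest at Sgce-Peg10 in 6 of 9 P60 segments. These values do not settle whether equal numbers mark the same mouse. The main tests did not pair the samples by number. The replicate block gave 7, 1, 28 and 2 calls for P60 segments, segment 9 against 3, age and diet, where 8, 3, 36 and 4 were called without it. Mcts2 has no plus-strand and Nnat no minus-strand members, so those settings gave no value there. Median depth per CpG was lowest at Nespas-Gnas (329.5 reads).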
